A study of Mus musculus with 4 samples.

Results

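The AP-1 and immediate early genes examined here were Fos, Fosb, Fosl2, Jun, Junb, Jund, Egr1, Egr2, Atf3 and Nr4a1, measured in cells dissociated and sorted from embryonic mouse kidney. They were chosen by name, as all probe sets whose platform annotation gives 1 of these symbols. All 10 genes were found, with 14 probe sets of 45101 on the array, among 18193 genes tested. The arrays fall into 2 groups of 2, described by the labels as biological replicates. The labelled Tfrc-null group holds GFP-positive cells that descend from embryonic stem cells deleted for Tfrc, the gene of transferrin receptor 1. The wildtype group holds GFP-negative cells of the host embryos. Both groups came from chimeric kidneys made by injecting 3 to 5 such stem cells into wildtype blastocysts, both at embryonic day 15.5. The kidneys were dissociated with collagenase, then with trypsin and EDTA, before sorting by fluorescence. No group of donor cells with Tfrc intact was analysed here, so the deletion and the origin of the cells cannot be told apart. The brightest Tfrc probe set read 2509 and 3175 on the labelled Tfrc-null arrays and 1759 and 2348 on the wildtype arrays, higher without overlap where the labels give a deletion (log2 difference 0.47). The second probe set read 60.8 and 63.1 on the labelled Tfrc-null arrays and 14.5 and 36.9 on the wildtype arrays, also higher without overlap (2.68-fold). The third read 82.6 and 200.1 on the labelled Tfrc-null arrays and 53.0 and 118.7 on the wildtype arrays, with a higher mean and overlapping groups. The mean of all 3 thus went against the label, although 0 of the 3 passed with limma over all probe sets (adjusted p = 0.591 to 0.931). The sources used here do not give which part of the gene was deleted, and probes that lie elsewhere in the gene could not check the label. Every direction below rests on the labels. No undissociated kidney was analysed here either, so the values give levels after dissociation and no change caused by it.

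The immediate early genes are transcribed within minutes of a stimulus, without new protein synthesis, when kinases such as ERK, JNK and p38 act on factors already bound at their promoters. Fos and Jun family proteins pair through leucine zippers to form AP-1, which binds DNA at AP-1 sites. Egr1 and Egr2 are zinc finger factors, Atf3 is a stress-induced member of the ATF and CREB family, and Nr4a1 is an orphan nuclear receptor. Enzymatic dissociation of tissue at warm temperature is known to raise these genes together with heat shock genes.

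The promoters of 5 genes are shown because their replicates behaved differently: Fos was close to level over the 4 arrays, and Atf3, Egr2, Nr4a1 and Fosl2 differed about 2-fold or more between the 2 labelled Tfrc-null arrays. Each is the 250 bases before a transcription start in RefSeq, build GRCm38.p6, written 5′ to 3′ on the strand of the gene. Capitals mark TGACG on either strand (CGTCA on the strand shown), which is the core of cyclic AMP response elements, the CArG box bound by serum response factor, and the TATA box TATAAA on the strand shown.
Fos, chr12:85473640-85473889, plus strand: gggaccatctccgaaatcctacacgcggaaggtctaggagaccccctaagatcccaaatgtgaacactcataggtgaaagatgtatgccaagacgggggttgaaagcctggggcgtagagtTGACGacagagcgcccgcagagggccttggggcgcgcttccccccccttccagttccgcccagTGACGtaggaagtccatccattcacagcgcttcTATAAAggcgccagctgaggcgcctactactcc
Atf3, chr1:191183334-191183583, minus strand: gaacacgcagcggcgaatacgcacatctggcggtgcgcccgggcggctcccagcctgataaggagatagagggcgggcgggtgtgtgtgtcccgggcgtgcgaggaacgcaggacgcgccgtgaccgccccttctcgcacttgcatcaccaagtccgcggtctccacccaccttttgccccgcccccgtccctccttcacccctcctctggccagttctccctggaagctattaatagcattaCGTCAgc
Egr2, chr10:67537619-67537868, plus strand: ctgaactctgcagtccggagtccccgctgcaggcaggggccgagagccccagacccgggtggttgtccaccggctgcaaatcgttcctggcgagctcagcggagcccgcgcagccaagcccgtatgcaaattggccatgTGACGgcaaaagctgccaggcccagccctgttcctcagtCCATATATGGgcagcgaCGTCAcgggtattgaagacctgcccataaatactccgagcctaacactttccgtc
Nr4a1, chr15:101266596-101266845, plus strand: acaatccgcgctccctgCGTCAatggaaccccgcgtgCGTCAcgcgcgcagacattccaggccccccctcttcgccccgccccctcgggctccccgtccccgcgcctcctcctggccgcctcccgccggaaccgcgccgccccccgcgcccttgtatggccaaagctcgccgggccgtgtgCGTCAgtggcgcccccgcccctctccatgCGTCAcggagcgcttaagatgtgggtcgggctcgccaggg
Fosl2, chr5:32136222-32136471, plus strand: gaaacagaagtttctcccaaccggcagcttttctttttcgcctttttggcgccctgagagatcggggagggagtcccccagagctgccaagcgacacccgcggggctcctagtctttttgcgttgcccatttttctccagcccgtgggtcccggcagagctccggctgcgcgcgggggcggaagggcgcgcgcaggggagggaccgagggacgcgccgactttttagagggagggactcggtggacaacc
The RefSeq promoter table held windows for 9 of the 10 genes (all but Egr1), 13 windows in all. TGACG was found in 6 of the 9 genes (Fos, Fosb, Junb, Egr2, Atf3 and Nr4a1) and in 8 of their 13 windows, against 17.8% of all 32851 windows of this length. Of the 5 Egr2 windows, 3 overlap and hold the same 2 TGACG sites, so the window count holds these sites 3 times. Nr4a1 held 4 matches and Fos 2, at 129 and 66 bases before the start. Within these windows a CArG box was found in Egr2 only, at 2 distinct sites, against 1.47% of all windows. The same 3 overlapping windows share 1 of these sites, and another window holds the other. TATAAA was found in Fos only, against 7.59% of all windows. The full element TGACGTCA, which contains TGACG, is in 1.55% of all windows and in 0 of the 13, and the AP-1 site TGANTCA is in 6.75% and in 0 of the 13, both searched on both strands. Only these patterns were searched, so variants of the sites with other letters or spacing were not counted. Only 250 bases before a start were searched, so sites farther upstream or past the start were not seen. A gene without a match here can hold the motif elsewhere, and Egr1 was not searched. The Fosl2 window shown held none of the motifs. These matches describe letters in a window and are not evidence of binding.

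None of the 10 genes passed the test between labelled Tfrc-null and wildtype cells, nor did any other gene. For 9 of the 10 the replicates of 1 group lay farther apart than the group means, against 75.5% of all genes. With limma, 0 of the 10 members passed an adjusted p of 0.05 in either direction, where 0% of all 18193 genes did, and 0 members had an unadjusted p under 0.05, against 1459 genes (8.02%) in all. In the fit over all 45037 probe sets, 0 of the 14 probe sets of the members had an unadjusted p under 0.05, against 7.24%. A 2-fold difference between group means was seen for 0 of 10 members, against 2.72% of all genes, and together with no overlap for 0 of 10, against 2.66%. Differences are given as log2 of labelled Tfrc-null minus log2 of wildtype, with the standard error (SE) and 95% interval of the limma model. They ranged from -0.67 for Fosl2 to 0.42 for Junb, with a median of -0.07 over the members and 0.04 over all genes. The group mean was lower in labelled Tfrc-null cells for 8 of 10 members on their brightest probe sets, against 42.5% of all genes. This count includes Egr1 (-0.016) and Atf3 (-0.0089), which were close to 0. With arrays centred on their median, Egr1 stood at 0.016 and Atf3 at 0.023. Of all 14 probe sets of the members, 9 had a lower group mean. Values are linear intensities of probe sets, and levels of different probe sets are not comparable with each other. In mixed cells measured in bulk, fewer cells of a type and less RNA per cell cannot be told apart. All 14 probe sets lay above the control level on all 4 arrays, which is the highest of 27 Bacillus subtilis control probe sets on that array, 7.18 to 9.08. The smallest two-sided p of an exact permutation test with 2 arrays a group is 0.3333, and the number of arrays limits the precision.

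Of the Fos family, Fos itself, the classical partner of Jun, read 5293 and 5738 on the labelled Tfrc-null arrays (replicates 1 and 2) and 5969 and 5611 on the wildtype arrays. The groups overlapped, and the 4 arrays lay close together. The log2 difference was -0.07 (SE 0.18, 95% interval -0.53 to 0.39, limma adjusted p = 0.994). Fosb, a second Fos protein, read 1481 and 1741 on the labelled Tfrc-null arrays and 1463 and 1488 on the wildtype arrays. The 2 wildtype arrays were nearly equal, labelled Tfrc-null array 2 stood above the rest, and the log2 difference was 0.12 (95% interval -0.36 to 0.61, adjusted p = 0.98). Fosl2, which encodes Fra-2, read 653.0 and 1601.5 on the labelled Tfrc-null arrays and 1336 and 1988.0 on the wildtype arrays. The lowest of the 4 was labelled Tfrc-null array 1, and labelled Tfrc-null array 2 lay between the wildtype arrays. Its log2 difference of -0.67 (SE 0.47, 95% interval -1.86 to 0.52, adjusted p = 0.859) was the largest of the 10 in absolute size, and it was -0.025 without labelled Tfrc-null replicate 1. A dimmer second Fosl2 probe set read 28.9 and 67.2 on the labelled Tfrc-null arrays and 32.8 and 59.0 on the wildtype arrays. It too was higher on array 2 of each group, but its log2 group difference was 0.0016.

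Of the Jun family, Jun read 3447 and 3591 on the labelled Tfrc-null arrays and 3855 and 3785 on the wildtype arrays. Jun was the only member whose difference exceeded the replicate spread of both groups, and its labelled Tfrc-null arrays lay below its wildtype arrays without overlap, by a small margin (log2 difference -0.12, SE 0.18, 95% interval -0.57 to 0.33, limma adjusted p = 0.977). A second probe set of the same transcript did not show this separation: it read 1409 and 1455 on the labelled Tfrc-null arrays, inside the 1669.9 and 1165 of the wildtype arrays. Junb, which can stand in for Jun in AP-1 with weaker activating function, read 167.8 and 152.2 on the labelled Tfrc-null arrays and 143.6 and 99.0 on the wildtype arrays. The groups did not overlap, but the wildtype arrays differed from each other by more than the groups did, and the log2 difference of 0.42 had a 95% interval of -0.20 to 1.05 (adjusted p = 0.79). Jund, the Jun protein that many cells make constitutively, read 5859 and 5256 on the labelled Tfrc-null arrays and 5906 and 5750.0 on the wildtype arrays. The groups overlapped (log2 difference -0.07, 95% interval -0.54 to 0.40, adjusted p = 0.994). A dim second Jund probe set read 7.83 and 14.6 against 9.53 and 11.5 in wildtype, close to the control level.

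Egr1, which is induced by serum response factor and its ETS cofactors, read 9829.6 and 9113 on the labelled Tfrc-null arrays and 9875 and 9279.6 on the wildtype arrays. The 2 arrays numbered 1 lay close together, as did the 2 numbered 2, and the log2 difference was -0.016 (SE 0.18, 95% interval -0.48 to 0.45, limma adjusted p = 1). Egr2, a related zinc finger factor, read 747.4 and 1509 on the labelled Tfrc-null arrays and 1363 and 1521 on the wildtype arrays. Array 1 of the labelled Tfrc-null group stood below the other 3, which lay close together, and the log2 difference was -0.44 (95% interval -1.36 to 0.48, adjusted p = 0.897), or 0.067 without labelled Tfrc-null replicate 1. The second Egr2 probe set had the same lowest array but a smaller gap, at 711.7 and 1161 on the labelled Tfrc-null arrays and 892.6 and 1183 on the wildtype arrays.

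Atf3, which dimerizes with Jun proteins and is raised by many stresses, read 630.2 and 1522 on the labelled Tfrc-null arrays and 863.0 and 1125 on the wildtype arrays. The labelled Tfrc-null arrays were the lowest and the highest of the 4, so the wildtype values lay between them and the log2 difference was -0.0089 with a 95% interval of -1.14 to 1.12 (limma adjusted p = 1). Leaving out labelled Tfrc-null replicate 1 gave 0.63 and leaving out labelled Tfrc-null replicate 2 gave -0.65. Nr4a1 read 326.0 and 653.5 on the labelled Tfrc-null arrays and 790.0 and 612.7 on the wildtype arrays. The lowest was again labelled Tfrc-null array 1, with the other 3 arrays overlapping (log2 difference -0.59, SE 0.37, 95% interval -1.54 to 0.35, adjusted p = 0.821). Without labelled Tfrc-null replicate 1 the difference of Nr4a1 was -0.090. The intervals of Atf3, Fosl2, Egr2 and Nr4a1 still contain 2-fold lower levels in labelled Tfrc-null cells, whereas those of Fos, Fosb, Jun, Junb, Jund and Egr1 do not. Of these 6, the interval of Junb contains 2-fold higher levels.

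**Figure D1:**
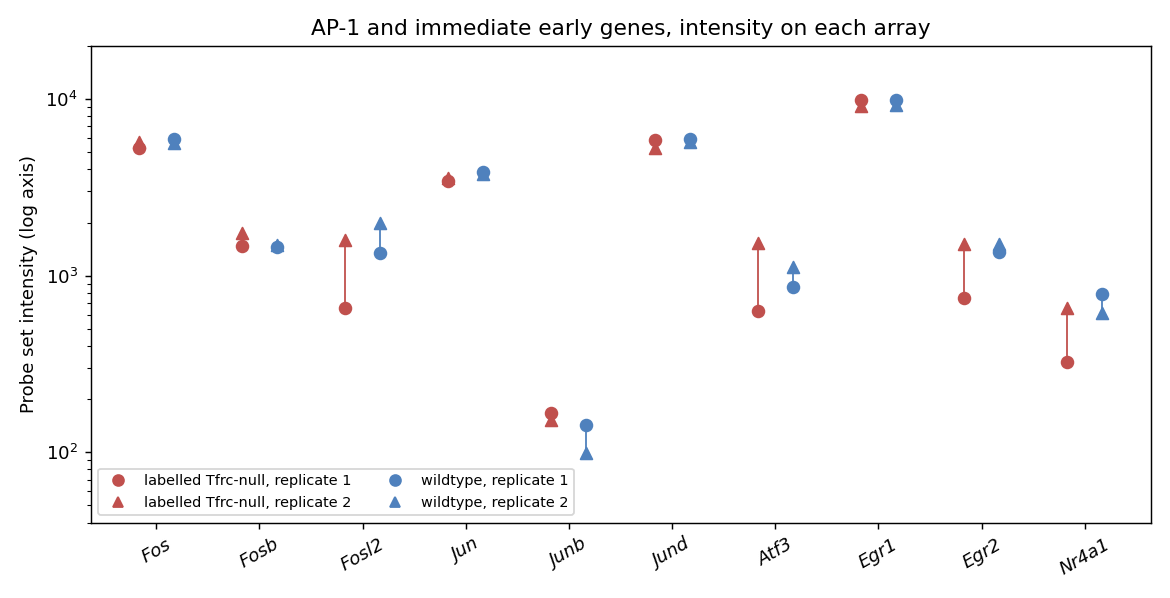
Intensity of the 10 genes on each array (log axis), with labelled Tfrc-null arrays in red left of wildtype arrays in blue, replicate 1 as a circle, replicate 2 as a triangle, and a line joining the replicates. The red circles of Fosl2, Atf3, Egr2 and Nr4a1 (653.0, 630.2, 747.4 and 326.0) lie below the other 3 arrays of the same gene.

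The spread between replicates was larger than the difference between groups for most members, as for most genes. For 9 of 10 members (all but Jun) the larger of the 2 replicate differences exceeded the difference of the group means, against 75.5% of all genes. Leaving out 1 array gave a count of 6 (labelled Tfrc-null replicate 1), 4 (labelled Tfrc-null replicate 2) or 8 (either wildtype replicate). The labelled Tfrc-null arrays differed by 1.29 on the log2 scale for Fosl2 (2.45-fold), 1.27 for Atf3 (2.42-fold) and 1.01 for Egr2 (2.02-fold), and by 2.00-fold for Nr4a1, each higher on array 2. The second probe set differed 1.63-fold between these arrays for Egr2 and 2.32-fold for Fosl2. On the brightest probe sets, replicates at least 2-fold apart within the labelled Tfrc-null group were thus seen for 4 of 10 members, against 2.19% of all genes. Within the wildtype group the same 4 genes differed by 0.57, 0.38, 0.16 and 0.37, and 0 of 10 members were 2-fold apart, against 4.85% of all genes. The remaining 6 members differed by 0.06 to 0.23 between the labelled Tfrc-null arrays and by 0.02 to 0.54 between the wildtype arrays. On the brightest probe sets the spread was wider in the labelled Tfrc-null group for 9 of 10 members, all but Junb, against 42.6% of all genes. The margin was small for Fos (0.12 against 0.09 in wildtype), Jun (0.06 against 0.03) and Egr1 (0.11 against 0.09). On the second Jun probe set the spread was wider in wildtype (0.05 against 0.52). Labelled Tfrc-null array 1 was the lowest of the 4 for 6 members (Fos, Fosl2, Jun, Egr2, Atf3 and Nr4a1), against 21.1% of all genes. On the second Jun probe set, wildtype array 2 was the lowest. Only 2 of 10 members had groups that did not overlap, Jun lower and Junb higher, against 34.9% of all genes. With 1 array left out it was 4 to 7, since 3 arrays separate more easily than 4.

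**Figure D2:**
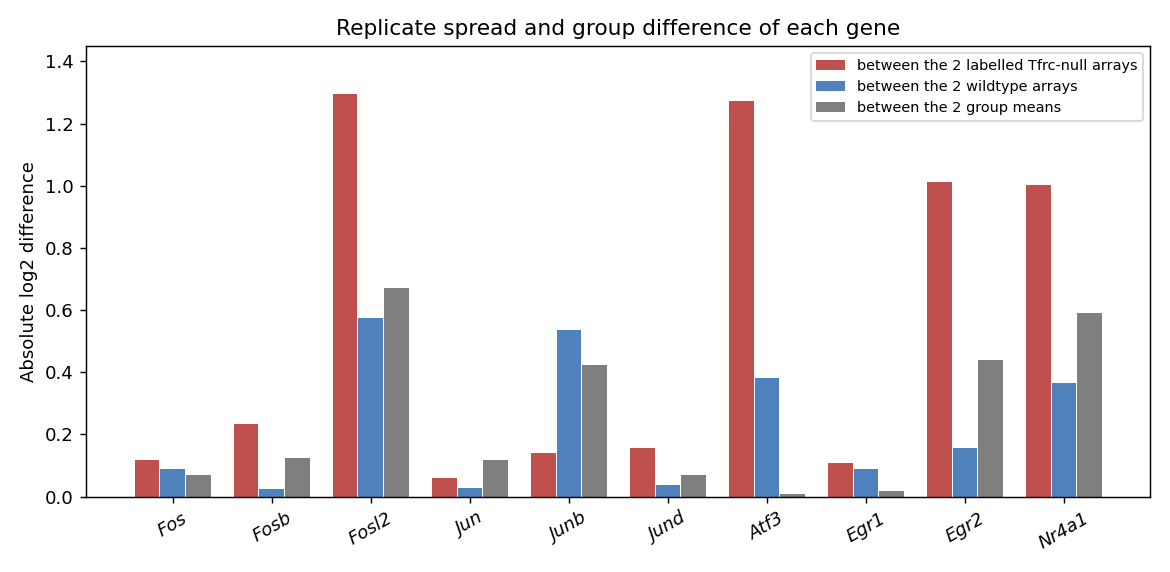
Absolute log2 differences of each gene between the 2 labelled Tfrc-null arrays (red), between the 2 wildtype arrays (blue) and between the group means (grey). The grey bar is the tallest for Jun only, at 0.12, and the red bars of Fosl2, Atf3, Egr2 and Nr4a1 are the tallest of their genes, up to 1.29 for Fosl2.

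The replicate number went with technical values. The 3′ BioB hybridization control read 5780 and 4068 on labelled Tfrc-null arrays 1 and 2 and 5350.1 and 3760 on wildtype arrays 1 and 2, and the 3′ probe set of beta-actin exceeded its 5′ probe set 5.89-fold and 7.21-fold on the labelled Tfrc-null arrays and 5.51-fold and 6.49-fold on the wildtype arrays. The labels do not say whether equal numbers share a kidney, a litter or a day, and the part of these values in the results was not tested. Within replicate 1, labelled Tfrc-null minus wildtype was -1.28 for Nr4a1, -1.03 for Fosl2, -0.87 for Egr2 and -0.45 for Atf3 on the log2 scale. Within replicate 2 it was 0.09, -0.31, -0.01 and 0.44 for the same genes. The differences of Nr4a1 and Atf3 thus pointed in opposite directions within the 2 numbers, and that of Egr2 was close to 0 within replicate 2. The median over the 10 members was -0.17 within replicate 1 and 0.01 within replicate 2. Fosl2, Egr2, Atf3 and Fosb were higher on both arrays numbered 2 than on both numbered 1, 4 of 10 members against 22.8% of all genes. Jund and Egr1 were lower on both arrays numbered 2, 2 of 10 members against 23.8% of all genes.

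Heat shock genes, which are raised by proteotoxic stress and commonly by tissue dissociation, mostly stood higher on the arrays numbered 2, in both groups. Of 17 listed genes 15 were measured, and 10 of these were higher on both arrays numbered 2 than on both numbered 1, against 22.8% of all genes. Another 2 of the 15 were lower on both arrays numbered 2, against 23.8% of all genes. Hspa1a, an inducible HSP70 gene, read 15.3 and 575.8 on the labelled Tfrc-null arrays and 15.7 and 465.3 on the wildtype arrays. Array 2 thus stood 37.8-fold above array 1 in the labelled Tfrc-null group and 29.7-fold in the wildtype group. These folds divide by dim readings, since the array 1 values of Hspa1a lay below the array medians of 17.5 and 17.9. Hspa1b, a close copy of Hspa1a, read 827.9 and 4733.5 on the labelled Tfrc-null arrays and 1610.0 and 4835 on the wildtype arrays. Its array 2 stood 5.72-fold and 3.00-fold above array 1 in these groups. Because probes of either copy can bind the other, the split between the 2 genes is uncertain. The small heat shock protein gene Hspb1 read 209.3 and 1255 against 123.9 and 803.3 in wildtype. The co-chaperone gene Dnajb1 read 990.1 and 2673 against 1032 and 2377 in wildtype, and its relative Dnajb4 read 337.0 and 676.9 against 333.8 and 502.0. In each of these genes both arrays numbered 2 lay above both numbered 1, and the groups overlapped. Hsp90aa1 had a log2 group difference of -0.14 and the co-chaperone Bag3 of 0.18. Bag3 was slightly lower on array 2 within each group, at 104.2 and 100.6 on the labelled Tfrc-null arrays and 93.6 and 87.6 on the wildtype arrays. The list had a median group difference of 0.06. It was 0.18 when labelled Tfrc-null replicate 1 was left out and -0.24 when labelled Tfrc-null replicate 2 was left out. With limma 0 of 15 passed in either direction, where 0% of all genes did. An unadjusted p under 0.05 was seen for 0 of 15, against 8.02% of all genes. Hspa1a and Dnajb1 were chosen after their values were seen.

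**Figure D3:**
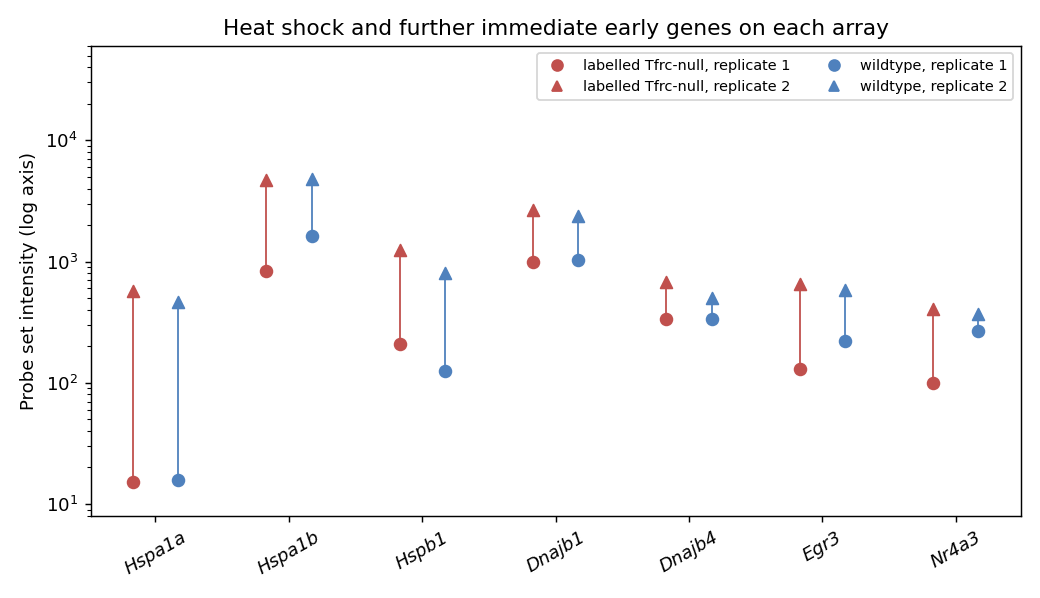
Intensity of 5 heat shock genes and of Egr3 and Nr4a3 on each array (log axis), drawn like the plot of the 10 genes by array. Triangles (replicate 2) lie above circles (replicate 1) in both groups for all 7 genes, and for Hspa1a the circles are at 15.3 and 15.7.

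Among 17 other immediate early transcription factors, all measured, 0 passed with limma in either direction, where 0% of all genes did. An unadjusted p under 0.05 was seen for 0 of the 17, against 8.02% of all genes. Their median group difference was -0.21, with 12 lower and 5 higher, where 42.5% of all genes were lower. For 12 of 17 the lowest value was on labelled Tfrc-null array 1, against 21.1% of all genes. Egr3, a relative of Egr1, read 129.0 and 648.6 on the labelled Tfrc-null arrays and 222.0 and 577.8 on the wildtype arrays, and Nr4a3, a relative of Nr4a1, read 98.6 and 404.8 against 269.4 and 365.9 in wildtype. Both genes, chosen after their values were seen, stood higher on the arrays numbered 2 in each group. Nr4a2, the third NR4A receptor, read 327.6 and 608.1 on the labelled Tfrc-null arrays and 620.9 and 693.9 on the wildtype arrays, without overlap (log2 difference -0.56, SE 0.33, adjusted p = 0.799). Klf10, Myc, Id2 and Hes1 had log2 differences of -0.34, -0.29, -0.27 and -0.21. Without labelled Tfrc-null replicate 1 the median of this list turned to 0.14. With the mean of all probe sets of each gene the median was -0.070.

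Of 35 feedback and other early response genes, all measured, 28 had a lower mean in labelled Tfrc-null cells, against 42.5% of all genes, and the median difference was -0.19. Again 0 passed in either direction with limma, and 2 had an unadjusted p under 0.05 (5.71%, against 8.02% of all genes). Arc, an activity-regulated immediate early gene, read 18.7 and 21.3 on the labelled Tfrc-null arrays and 38.4 and 47.3 on the wildtype arrays. These groups did not overlap, and the log2 difference was -1.09 (SE 0.21, adjusted p = 0.25). Hbegf, an EGF receptor ligand, read 93.8 and 125.3 on the labelled Tfrc-null arrays and 182.7 and 180.6 on the wildtype arrays (log2 difference -0.74, adjusted p = 0.46). The chemokine gene Cxcl2, the pseudokinase gene Trib1 and the ERK phosphatase gene Dusp5 had log2 differences of -0.63, -0.78 and -0.62. In this list 9 genes were lower without overlap, against 14.3% of all genes, and 1 was higher, against 20.6%. For 20 of 35 the lowest value was on labelled Tfrc-null array 1, against 21.1% of all genes. Leaving out labelled Tfrc-null replicate 1 gave a median of -0.036, and leaving out labelled Tfrc-null replicate 2 gave -0.37.

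Of 15 other AP-1 family and bZIP genes 14 were measured, and 0 passed with limma in either direction (1 at an unadjusted p under 0.05, which is 7.14% against 8.02% of all genes). The small Maf gene Mafk read 67.1 and 88.5 on the labelled Tfrc-null arrays and 134.5 and 111.8 on the wildtype arrays (log2 difference -0.67, SE 0.23, adjusted p = 0.538). Mafg, Batf2, Batf3 and Batf had log2 differences of -0.33, -0.32, 0.35 and 0.46, and Batf exceeded the control level on 3 arrays only. The median of the list was -0.09, and it was 0.071 without wildtype replicate 1. Of the 14 genes 8 were lower and 6 higher, where 42.5% of all genes were lower. The kinases and cofactors upstream of immediate early genes had 21 of 25 genes measured, 0 passed in either direction (1 at an unadjusted p under 0.05, which is 4.76% against 8.02%), and the median was -0.04. The p38 kinase genes Mapk13 and Mapk12 had log2 differences of -0.55 and -0.54, the serum response factor partner Elk4 of -0.25, and the kinase kinase genes Map2k2 and Map2k4 of 0.39 and 0.30. In 3 of these 21 the lowest value was on labelled Tfrc-null array 1, against 21.1% of all genes. Without wildtype replicate 1 the median of the upstream list turned to 0.18.

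**Figure D4:**
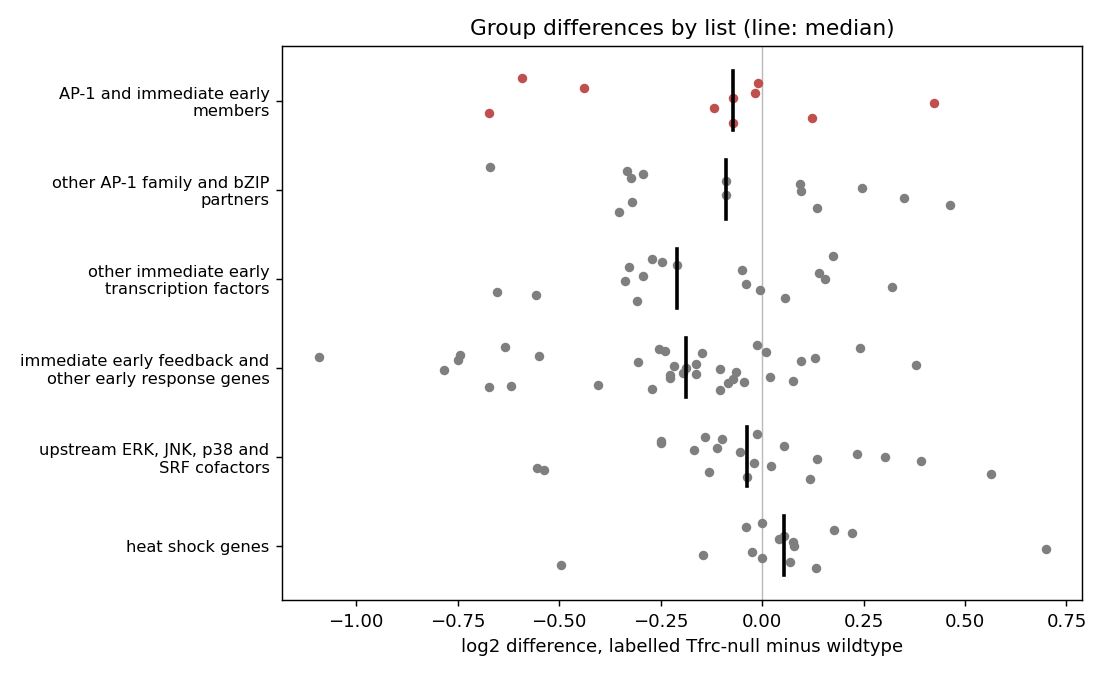
Group differences (log2, labelled Tfrc-null minus wildtype) of every measured gene in the 6 lists, 1 point per gene, with a vertical line at the median of each list. The medians run from -0.21 for other immediate early transcription factors to 0.06 for heat shock genes, and Arc at -1.09 is the point farthest to the left.

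By Euclidean distance between mean-centred log2 values over the 4 arrays, among 13571 genes above the control level on all of them, Sppl3 lay nearest to Fos (0.0093), Arhgap42 nearest to Jun (0.0094) and Inpp5e nearest to Egr1 (0.021). The next in order were Zfp799 and Mycbp2 for Fos, Dusp16 and Pabpn1 for Jun, and Islr2 and Tsfm for Egr1. Nfkbie, an inhibitor of NF-kappaB, was nearest to Atf3 (0.12), at 32.4 and 81.1 on the labelled Tfrc-null arrays and 46.3 and 54.2 on the wildtype arrays, followed by Mylpf and Nptx1. Only 4 values define each pattern, so this is a description.

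Marker genes of several cell types had groups without overlap. Over all genes, 14.3% were lower and 20.6% higher without overlap. The sums given here add linear intensities of different probe sets, so the brightest markers of a list weigh most, and they are not numbers of cells. The summed intensity of 9 ureteric bud markers was 3033 and 3259 on the labelled Tfrc-null arrays and 7369.6 and 7268 on the wildtype arrays, with 6 lower without overlap. Of 8 stromal markers 6 were higher without overlap, summing to 14062.5 and 12552 against 11894 and 8518, and of 8 endothelial markers 5 were lower, summing to 3449.8 and 2830.4 against 5585 and 4789. All 7 measured erythroid markers were lower without overlap (87.6 and 106.2 against 1373 and 4143), as were 6 of 8 neutrophil markers (150.7 and 577.3 against 5077 and 8647), with 4 of 7 and 5 of 8 above the control level on both labelled Tfrc-null arrays. The 8 macrophage and leukocyte markers summed to 4251 and 4231 on the labelled Tfrc-null arrays and 4359 and 4858 on the wildtype arrays, with 3 lower and 2 higher without overlap. The 6 nephron progenitor markers summed to 839.5 and 572.6 against 876.8 and 961.8 in wildtype, with 1 lower without overlap. The 4 measured of 6 podocyte markers summed to 2562 and 2179 against 2722 and 2467 in wildtype, with 1 higher without overlap. The part of these cell types in the values of immediate early genes was not tested.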

How the data were processed

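Total RNA (50 ng) of sorted cells was amplified, biotin-labelled and hybridized to Affymetrix mouse arrays, per the labels' protocols. The authors deposited probe set intensity values on a linear scale, 1 column for each of 4 arrays, and the submitters' processing notes name RMA. The sources used here give neither its version nor its settings. A change shared by most genes would be lost, because RMA gives all arrays like distributions. Median intensities were 17.5 and 18.8 on the labelled Tfrc-null arrays and 17.9 and 19.3 on the wildtype arrays.

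Intensities were taken to log2 with no filter and no further normalization. Probe sets with 1 gene symbol (34958) were named through Entrez identifiers in a RefSeq table of GRCm38.p6, which held 18032 of 18193 genes. For each gene the brightest probe set by mean log2 was used, and 932 probe sets with several symbols and 9211 with none were left out. Groups were compared with lmFit and eBayes of limma 3.58.1 (R 4.3.3), and p-values were adjusted by Benjamini-Hochberg across the whole table, with calls made under 0.05. Further probe sets of a member were fitted with all 45037 that are not controls. The code was tested on simulated data.

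The members and lists were chosen with earlier results of these data known. Genes named are all members with every probe set, Tfrc, the 5 genes with the smallest p of each of 5 other lists, and the 3 genes nearest to Fos, Jun, Egr1 and Atf3. Any other gene was chosen after its values were seen. Nothing says that replicates came from separate animals, so p-values measure the spread between these samples. Alternatives were other scalings, a filter on dim probe sets, the mean of all probe sets, an intensity trend, the replicate number as a block and leaving out each array.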

Additional observations from a re-analysis of the deposited data

How the results depend on the processing

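The 10 members stayed at 0 calls under all 10 other settings and with all probe sets tested, the lowest adjusted p of a member being 0.316. Over all genes the count of calls was 0, and it was 2 with the replicate block, 2 with arrays centred on their median, 2 with an intensity trend and 1 when probe sets were averaged per gene. These were Stfa3 and, except with averaged probe sets, Stfa2l1, neither of them a member. Genes with an unadjusted p under 0.05 numbered 2691 with the replicate block, against 1459 without it. Equal replicate numbers deviated together (r = 0.51 across 18193 genes, which are not independent), but the labels do not say that they pair samples. With averaged probe sets, 1 member had groups without overlap in place of 2. All 10 members, Jun included, then had a replicate spread above the group difference, in place of 9. The log2 difference of Fosl2 was -0.34 with averaged probe sets, in place of -0.67.

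Leaving out 1 array gave 4 to 7 members without overlap and 4 to 8 members with a replicate spread above the group difference, since fewer arrays enter. The lowest of the spread counts was seen without labelled Tfrc-null replicate 2, and the lowest of the overlap counts without wildtype replicate 1. The median difference of the members ran from -0.14 to -0.019. List medians ran from -0.24 to 0.18 for heat shock genes, -0.37 to -0.036 for feedback genes, -0.18 to 0.071 for other AP-1 genes, -0.44 to 0.14 for other immediate early factors and -0.15 to 0.18 for upstream genes. Directions of single genes turned in 21 of 400 comparisons, none of them past the threshold. With arrays centred on their median, Atf3 stood at 0.023 and Egr1 at 0.016. With 1 array left out, the ranges were -0.65 to 0.63 for Atf3, -0.071 to 0.038 for Egr1, -0.95 to 0.067 for Egr2, -0.15 to 0.0077 for Jund, -1.47 to 0.86 for Egr3, -1.67 to 0.37 for Nr4a3, -2.48 to 2.75 for Hspa1a, -1.75 to 0.76 for Hspa1b, -0.65 to 2.05 for Hspb1, -0.66 to 0.77 for Dnajb1 and -0.28 to 0.73 for Dnajb4. The within-number differences and the fit over all probe sets were chosen after seeing the data. With 2 arrays a group, the lone array of a reduced group is assumed to vary like the others.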
